A study of Mus musculus with 14 samples.

Results

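Anterior mesendoderm organizer genes were followed here as a set of 7 genes chosen by name: the transcription factors Gsc, Lhx1, Otx2 and Hesx1, the secreted antagonists Cer1 and Dkk1, and the membrane protein Shisa2. All 7 had a row in the tables, which hold 24054 genes in each of 14 RNA-seq libraries of mouse embryonic stem (ES) cells and their derivatives. The rule used no threshold on a measured value. The libraries fall into 6 groups. At day 0, ES cells were sorted as Cherry-negative from red-fluorescent mouse embryonic fibroblasts (MEFs) after a day in medium without LIF, and were either heterozygous (Foxa2-Venus-KO/+; d0con, n = 2) or homozygous (Foxa2-Venus-KO/Foxa2-Venus-KO; d0ko, n = 2) for a Foxa2 allele whose coding region is replaced by a Venus reporter. At day 3, cells of both genotypes had grown on Wnt3a-producing feeder cells with 12 ng/ml Activin A and were sorted as Venus-positive (d3con, n = 3; d3ko, n = 3). Every day 0 and day 3 group thus carries at least 1 disrupted Foxa2 allele, the controls included. In a separate line, T119, a doxycycline-inducible Foxa2-Venus transgene was switched on for 48 h with 40 ng/ml doxycycline in LIF and serum, without feeders, and Venus-negative (d2-FVFn, n = 2) and Venus-positive (d2-FVFp, n = 2) cells were sorted.

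Each genotype is represented by few clones. Replicates 1 and 3 of d3con came from clone C59 and replicate 2 from clone C63, while replicates 1 and 3 of d3ko came from clone C9 and replicate 2 from clone C17. The d0 replicates 1 and 2 came from the same clones in the same order. The p-values below measure the spread between these libraries and not between independently derived animals or embryos. Libraries held 14142788 to 27278237 expected counts. The 2 libraries d3con replicate 1 and d3ko replicate 1 had reads of 75 bases and the others of 50. Foxa2 itself followed the labels: 34.8 to 58.6 TPM in d3con, 0.11 to 0.19 TPM in d3ko, 2.01 to 2.99 TPM in d2-FVFn and 159.8 to 169 TPM in d2-FVFp. Levels are in TPM, transcript abundances scaled for transcript length and library depth. Differences are log2 fold changes with their standard error (SE) from edgeR's quasi-likelihood fit across all genes, and a gene was called when its Benjamini-Hochberg adjusted p was under 0.05 and its absolute log2 fold change over 1.

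The organizer is the signalling centre at the anterior end of the primitive streak of the gastrulating embryo, and it forms the anterior mesendoderm, that is, the prechordal plate and the anterior definitive endoderm. These cells, and the anterior visceral endoderm before them, secrete antagonists that hold back Nodal, BMP and Wnt signals and so protect the future head from posterior signals. Gsc and Otx2 are homeodomain factors of the paired class, Lhx1 is a LIM-homeodomain factor required for head formation, and Hesx1 is a homeodomain repressor of the anterior endoderm and the forebrain. Cer1 binds Nodal and BMP ligands, Dkk1 blocks the Wnt co-receptors Lrp5 and Lrp6, and Shisa2 holds back the maturation of Wnt and FGF receptors in the endoplasmic reticulum. Foxa2 is a pioneer transcription factor of the endoderm and the axial mesendoderm.

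During differentiation of the control cells, 6 of the 7 genes rose. Cer1 had the highest level per length at day 3, and its 3 d3con libraries stood at 545, 544 and 548 TPM. The next levels were those of Otx2 (mean 328 ± 114 SD, n = 3), Dkk1 (248 ± 179.5), Lhx1 (229.9 ± 26.6), Gsc (141 ± 23.2), Shisa2 (60.1 ± 26) and Hesx1 (18.3 ± 13.6). The libraries of Otx2, Dkk1 and Lhx1 overlapped, so these neighbours in the order did not differ beyond their spread. The highest Shisa2 library (78.9 TPM) lay below the lowest Gsc library (119.8 TPM), and the ranges of Shisa2 and Hesx1 overlapped, with a lowest Shisa2 library of 30.4 TPM and a highest Hesx1 library of 31 TPM. Of all 13899 genes tested, 20.6% were called higher in this comparison. The median log2 fold change of the 7 genes was 8.37, against 0.07 over all genes tested.

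Gsc read 0.23 and 0.51 TPM in the d0con libraries and 166, 119.8 and 138 TPM in the d3con libraries. Every d3con library lay above both d0con libraries, and the fitted rise was 8.37 on the log2 scale (SE 0.9, adjusted p = 0.000284). Lhx1 was all but undetected at day 0, with 0 and 1 counts in the d0con libraries, and reached 202, 234 and 254 TPM in d3con. Its 22044 counts in d3con against that single count gave a ratio of 13400 in counts scaled to library size (CPM), with an exact 95% counting interval of 2400 to 529000 (adjusted p of the fit = 0.000389). Counting intervals and floors cover counting error only. Otx2 was already present in ES cells, at 15.8 and 24.3 TPM, and stood at 323, 216 and 444 TPM in d3con, a fitted log2 difference of 3.84 (SE 0.63, adjusted p = 0.00135). The fitted change of Otx2 was the smallest among the called transcription factors, and its day 3 level overlapped that of Lhx1.

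Hesx1 did not pass the test. The d0con libraries read 0.87 and 7.83 TPM (11 and 89 counts), the d3con libraries 31, 3.94 and 20.1 TPM, and the groups overlapped (log2 fold change 1.89, SE 1.08, adjusted p = 0.167). The order of the clones turned over between the days: clone C63 was the higher d0con library and the lowest d3con library. Without the day 3 replicate 2 libraries the log2 fold change was 2.38 (adjusted p = 0.0374). That leaves a single clone in d3con.

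Cer1 had no count in either d0con library. With a floor of 3 counts over the group, the depth of both libraries allows up to 0.0776 CPM, so Cer1 was at least 6620-fold higher in d3con (adjusted p = 0.00367). Dkk1 read 0.31 and 0.48 TPM in d0con and 385, 44.5 and 313 TPM in d3con, a rise of 9.1 on the log2 scale (SE 1.31, adjusted p = 0.000777). Shisa2 read 3.57 and 2.1 TPM in d0con and 78.9, 30.4 and 71.1 TPM in d3con, a rise of 4.21 on the log2 scale (SE 0.51, adjusted p = 0.000411). In Dkk1 and Shisa2 the low d3con library was that of clone C63, as for Hesx1, whereas Cer1 and Lhx1 were level across the 3 libraries. All fits that could test these 6 genes called each of them, except that DESeq2 gave no adjusted p for Cer1.

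**Figure D1:**
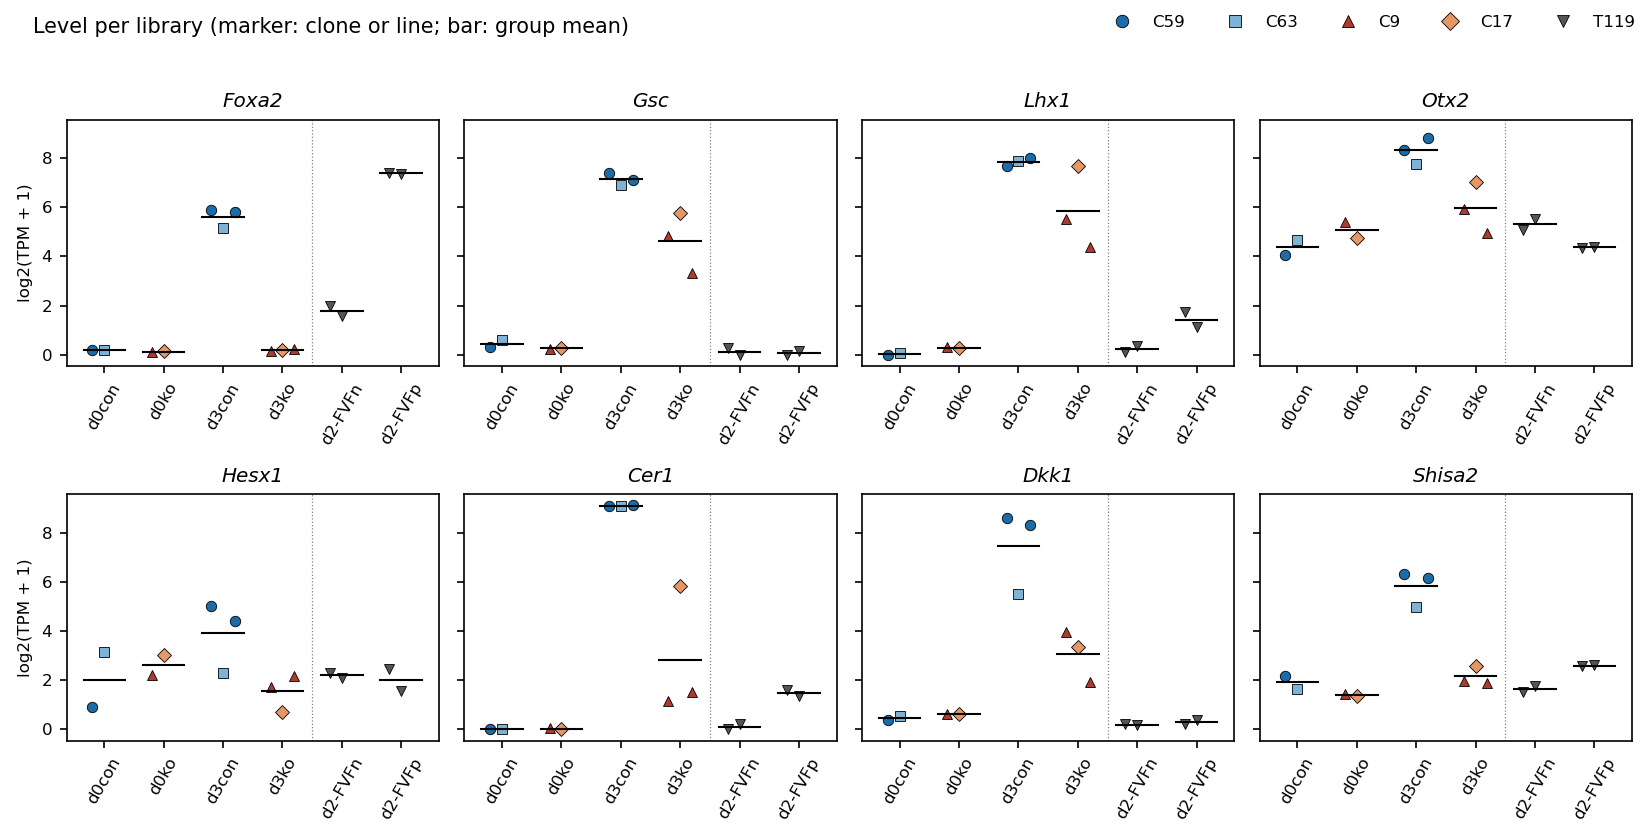
Level of Foxa2 and of the 7 organizer genes in each of the 14 libraries, as log2(TPM + 1) by group, with the marker giving the clone or line and the bar the group mean of the log2 values. Cer1 sits at the same height in the 3 d3con libraries, while clone C63 lies below the C59 libraries for Hesx1, Dkk1 and Shisa2, and clone C17 lies above the C9 libraries of d3ko for Lhx1 and Cer1.

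Venus-positive Foxa2-null cells were compared with d3con to ask which of these genes differ between the genotypes at day 3. The genotypes share no clone, so differences between clones are not separated from those of genotype. All 7 genes had every d3ko library below every d3con library, a pattern held by 12.3% of the genes tested. Gsc, Otx2, Dkk1 and Shisa2 were called lower, 4 of 7 against 3.51% of all genes, and none of the 7 was called higher, against 4.75%. The median log2 fold change of the 7 was -3.08, against 0.02 over all genes tested. In bulk RNA, fewer cells with a transcript and less transcript per cell cannot be told apart.

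Shisa2 was the gene with the smallest adjusted p. Its d3ko libraries read 2.96, 4.99 and 2.75 TPM, on average 5.93% of the d3con mean (log2 fold change -4.1, SE 0.43, adjusted p = 0.00438). These values sit close to those of undifferentiated cells. Dkk1 read 14.4, 9.06 and 2.84 TPM in d3ko, 3.54% of the d3con mean (log2 fold change -4.85, SE 0.84, adjusted p = 0.0131). Its lowest d3con library, at 44.5 TPM, was still above the highest d3ko library. Gsc read 27.2, 52.7 and 9.09 TPM in d3ko (log2 fold change -2.27, SE 0.51, adjusted p = 0.0252). Otx2 read 59.1, 129 and 29.9 TPM (-2.19, SE 0.49, adjusted p = 0.0257). For Gsc and Otx2 the d3ko mean was 21% and 22.2% of the d3con mean.

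Lhx1, Hesx1 and Cer1 did not pass the test, and for Lhx1 and Cer1 a single library set the spread. Cer1 read 1.22 and 1.87 TPM in the clone C9 libraries and 56.4 TPM in the clone C17 library, against 544 to 548 TPM in d3con (log2 fold change -4.82, SE 1.28, adjusted p = 0.0501). Lhx1 read 44.5 and 19.8 TPM in clone C9 and 201 TPM in clone C17, just below the lowest d3con library at 202 TPM (log2 fold change -1.4, SE 0.66, adjusted p = 0.203). Clone C17 thus held 87.3% of the d3con mean of Lhx1, but 10.3% of that of Cer1 and 8.3% of that of Shisa2. Hesx1 read 2.32, 0.65 and 3.52 TPM, with clone C17 lowest (log2 fold change -3.08, SE 0.98, adjusted p = 0.0774).

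The count of called genes in this comparison rested on single libraries. Without d3ko replicate 2 it was 6, with Lhx1 (log2 fold change -2.82, adjusted p = 0.00073) and Cer1 (-8.42, adjusted p = 3.84e-06) added, and without the replicate 2 libraries of both genotypes it was 7, each group then being 1 clone. Without d3con replicate 2 it was 5, without d3ko replicate 3 it was 3, without d3con replicate 1 or without d3ko replicate 1 it was 2 (Dkk1 and Shisa2), without d3con replicate 3 it was 1 (Shisa2), and without both 75-base libraries it was 0, although all 7 log2 fold changes stayed below 0 in each of these fits.

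The d3ko libraries also differed in their level of ES cell genes, and 5 of the 7 organizer genes were highest in the d3ko library where that level was lowest. The summed level of 8 pluripotency genes was 566 to 989.6 TPM in d3con and 15550 TPM, 2690 TPM and 17520 TPM in d3ko replicates 1, 2 and 3, against 13900 to 15780 TPM in the 4 day 0 libraries. At day 0 and in d3ko most of this sum was Dppa5a, at a mean of 13050 TPM in d0ko and 10540 TPM in d3ko. Pou5f1 read 501 to 944 TPM in d3ko and 1335 to 1457 TPM in d0ko. Zfp42 read 40.05 to 400 TPM and 568 to 575 TPM, so both were below d0ko in every d3ko library. The other genes of the list overlapped between d3ko and d0ko, and none of the 8 was called there. Of these genes 6 of 8 were called higher in d3ko than in d3con, among them Esrrb (log2 fold change 4.68, SE 0.65, adjusted p = 0.00938) and Zfp42 (4.53, SE 0.7, adjusted p = 0.0107). Esrrb and Zfp42 are markers of naive ES cells. The count was 0 of 8 without d3con replicate 3 or without both 75-base libraries. The replicate with the lowest pluripotency sum, clone C17, was the d3ko library with the most Gsc, Lhx1, Otx2, Cer1 and Shisa2. Hesx1 was lowest in that library, and Dkk1 was highest in replicate 1. The part of these differences in the lower levels of the 7 genes was not tested.

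The summed level of 10 posterior primitive streak genes was 46.7, 192 and 45 TPM in the d3con libraries and 69.1, 336 and 157 TPM in the d3ko libraries, highest in replicate 2 of each genotype. T (Brachyury), the classical marker of the streak and nascent mesoderm, read 131 TPM in d3con replicate 2 and 212 TPM in d3ko replicate 2, against 11.4 to 55.7 TPM in the other 4 day 3 libraries. The d3con library richest in T was thus the one with the lowest Gsc, Otx2, Hesx1, Dkk1 and Shisa2. It also had the lowest Foxa2, at 34.8 TPM against 58.6 and 54.5 TPM in replicates 1 and 3. In d3ko the order was the other way for most of these genes. The d3ko library richest in T had the most Gsc, Lhx1, Otx2, Cer1 and Shisa2, and the least Hesx1. Only Cdx1 of the 8 streak genes tested was called between d3ko and d3con, higher in d3ko (log2 fold change 5.49, SE 1.06, adjusted p = 0.0168).

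Fibroblasts can express Dkk1, and the level of fibroblast marker genes differed among the day 3 libraries. Transcripts of feeder cells and of the differentiating cells cannot be told apart in these values. The summed level of 8 fibroblast markers was 308, 60.2 and 220 TPM in the d3con libraries, in the same order as Dkk1. That order was not particular to Dkk1, since Gsc, Hesx1, Shisa2 and Foxa2 also had it. In the d3ko libraries it was 298, 136 and 371 TPM, overlapping d3con, with Dkk1 at 2.84 to 14.4 TPM. None of the 8 fibroblast markers was called between d3ko and d3con (median log2 fold change 0.42), and all 8 were above 0 in every day 3 library. In d3con against d0con 5 of 8 were called higher, including Col1a1 (log2 fold change 3.9, SE 0.92, adjusted p = 0.0073). The day 3 cells were sorted as Venus-positive, and the part of feeder RNA in the Dkk1 levels was not tested.

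Visceral endoderm, another embryonic source of Cer1, Lhx1 and Otx2, was read from a list of 8 markers, of which 4 were tested in the day 0 and day 3 cells. Apob (log2 fold change 3.84, SE 1.12, adjusted p = 0.0182) and Cubn (3.21, SE 1.2, adjusted p = 0.0478) were called higher and Rhox5 lower (-1.71, SE 0.47, adjusted p = 0.0139) in d3con against d0con. In d3ko against d3con 1 of the 4, Apob, was called lower (-6.34, SE 1.14, adjusted p = 0.014). Cubn (-1.03), Amn (-0.11) and Rhox5 (0.94) were not called there, and every d3ko library was higher for Rhox5. Levels were low, with Apob at 2.06, 0.29 and 0.45 TPM and Cubn at 0.37, 1.38 and 0.21 TPM in the d3con libraries. Afp was at 0 in all 10 libraries and Ttr reached at most 0.24 TPM. The summed level of the 8 markers was 10.7 to 22.5 TPM in d3con and 21.5 to 35.3 TPM in d3ko, most of it Rhox5. The part of visceral endoderm-like cells in the levels of the 7 genes was not tested.

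**Figure D2:**
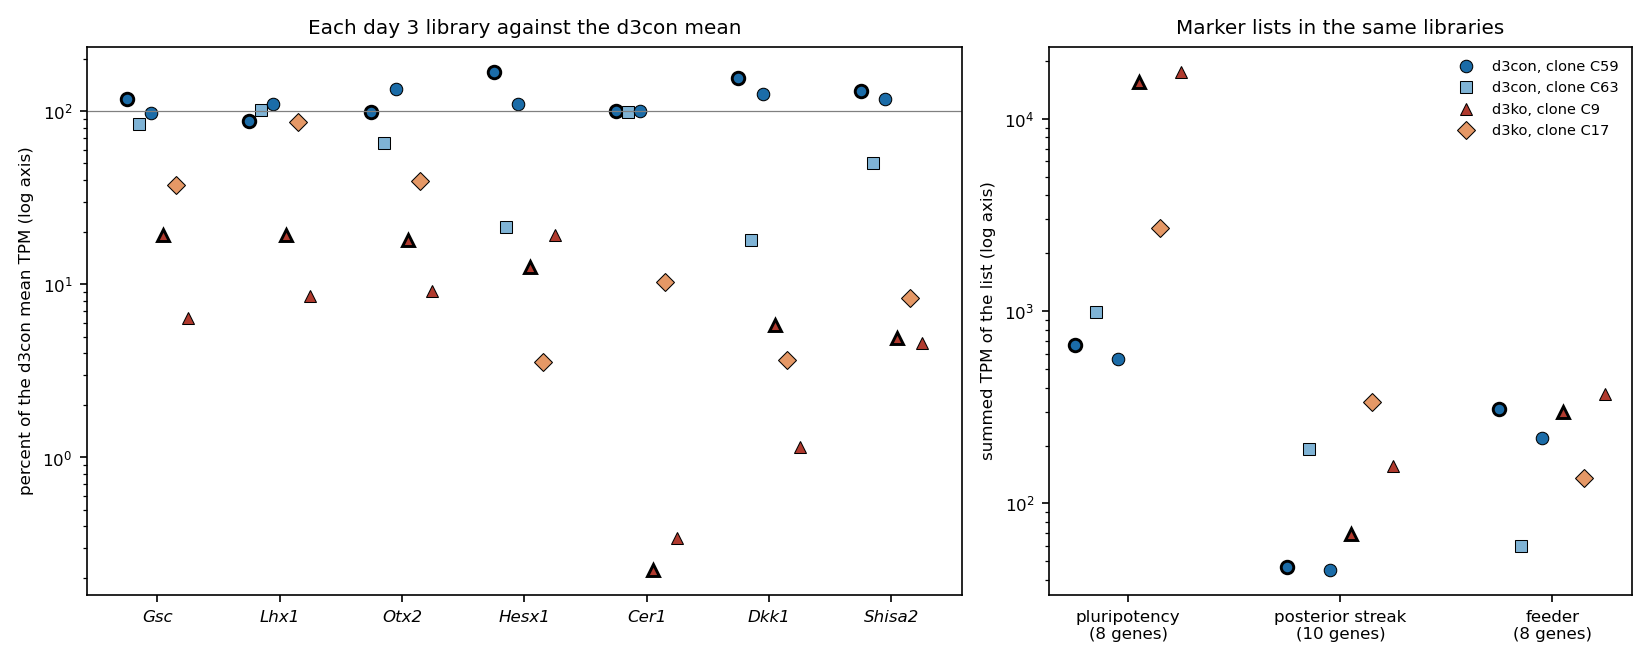
Left, each day 3 library as a percentage of the d3con mean TPM of each gene (log axis), with the marker giving the clone and a thick outline the libraries with reads of 75 bases. Right, summed TPM of the pluripotency, posterior streak and feeder lists in the same libraries (log axis): clone C17 lies at 2690 TPM for pluripotency genes, between d3con and the clone C9 libraries, and the replicate 2 libraries have the highest streak levels.

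Foxa2-null cells still raised part of the set on leaving day 0. In d3ko against d0ko, Gsc, Lhx1, Cer1 and Dkk1 were called higher, 4 of 7 against 11.6% of the genes tested. Gsc rose by 7 on the log2 scale (SE 0.9, adjusted p = 0.00148) from 0.18 and 0.21 TPM, and Lhx1 by 8.46 (SE 1.19, adjusted p = 0.00194) from 0.23 and 0.2 TPM. As a ratio of CPM, Gsc rose 134-fold (exact 95% counting interval 61.4 to 366), against 380-fold (200 to 832) in the control cells. Its day 0 groups held 6 counts in d0ko and 9 in d0con. For Lhx1, 5363 of the d3ko counts came from clone C17 and 1111 and 812 from the clone C9 libraries, and without d3ko replicate 2 its rise was 7.04 (adjusted p = 0.000371). Dkk1 rose by 3.85 (SE 1.09, adjusted p = 0.0276) from 0.54 and 0.53 TPM. Cer1 had 1 count in d0ko and 1011 in d3ko, a ratio of CPM of 796 (exact 95% counting interval 143 to 31500, adjusted p = 0.0337). Of these counts 944 came from clone C17 and 19 and 48 from the clone C9 libraries, so the ratio is largely that of 1 library, and without d3ko replicate 2 the fitted log2 rise of Cer1 fell from 9.3 to 5.71 (adjusted p = 0.000834). Otx2 (log2 fold change 0.94, adjusted p = 0.218), Shisa2 (0.91, adjusted p = 0.157) and Hesx1 (-1.46, adjusted p = 0.302) were not called. The calls for Cer1 and Dkk1 were both lost without d0ko replicate 1 or without d0ko replicate 2, Cer1 also without d3con replicate 3 and Dkk1 also without d3ko replicate 1.

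The difference between the genotypes in the change from day 0 to day 3 was tested directly with the interaction term. None of the 7 genes was called by edgeR, as was no gene at all (0% called lower). At an unadjusted p under 0.05 it passed for 4 of the 7, namely Otx2, Hesx1, Dkk1 and Shisa2, and for 1840 of 13899 genes. DESeq2 called 3, Otx2, Dkk1 and Shisa2, and limma called 0. Shisa2 had the smallest p, with a difference of -3.3 (SE 0.64, adjusted p = 0.129). Without d3ko replicate 2 the edgeR count was 4 (Lhx1, Otx2, Cer1 and Shisa2), and without d3con replicate 2 it was 1 (Shisa2).

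At day 0 the genotypes were compared with 2 libraries each. None of the 7 was called between d0ko and d0con by edgeR, DESeq2 or limma, none had an unadjusted p under 0.05, and 0% of all genes were called in either direction, although 195 had an unadjusted p under 0.05 and DESeq2 called 1 gene. Lhx1 had the largest fitted difference of the 7 (log2 fold change 3.4, SE 2.7), with 9 and 7 counts in d0ko against 0 and 1 in d0con. Otx2 read 41.1 and 26 TPM in d0ko against 15.8 and 24.3 TPM in d0con, and Shisa2 1.74 and 1.6 TPM against 3.57 and 2.1 TPM. Otx2, Hesx1 and Shisa2 all lie on chromosome 14, where the median of 285 genes was 0.18 higher on the log2 scale in d0con replicate 1 than in replicate 2, relative to all autosomes, against -0.04 to 0.02 on every other autosome. Of the 3 genes, Shisa2 was higher and Otx2 and Hesx1 were lower in that library. In the d3con libraries the chromosome 14 median lay between -0.04 and 0.01. In d3ko replicate 2 (clone C17) the median of chromosome 8, which holds none of the 7 genes, was -0.42 against the mean of the clone C9 libraries. In d0ko replicate 2, of the same clone, it was -0.06 against d0ko replicate 1. The part of the day 3 shift in the differences between the d3ko libraries was not tested.

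**Figure D3:**
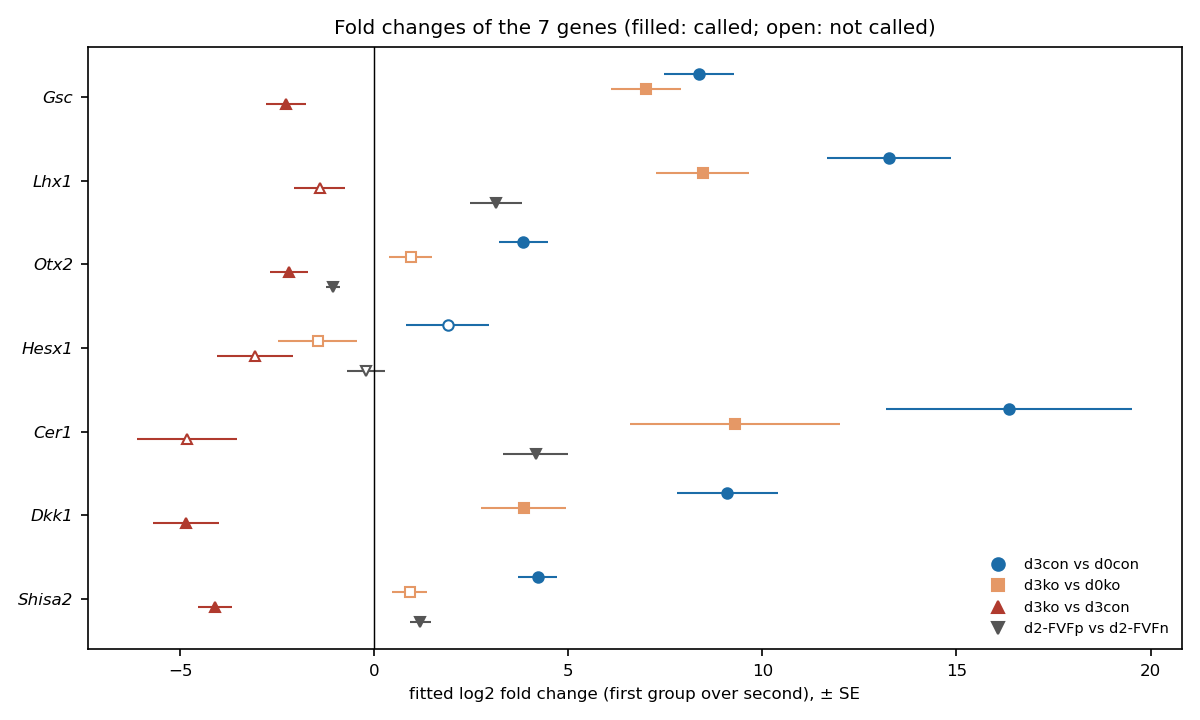
Fitted log2 fold change of each gene in 4 comparisons, with bars of 1 SE, filled where called and open where not. The d3con changes lie right of 0 for all 7 genes and the d3ko against d3con changes left of 0, and Gsc and Dkk1 have no doxycycline value because they were below the filter. The Cer1 and Lhx1 values against day 0 depend on the prior count of the fit, since those groups held 0 or 1 counts.

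Raising Foxa2 alone in ES cells was accompanied by changes in 4 of the 7 genes, all at low levels except for Otx2. In d2-FVFp against d2-FVFn, Lhx1, Cer1 and Shisa2 were called higher, 3 of the 5 tested against 6.96% of 12943 genes, and Otx2 was called lower, 1 of 5 against 1.47%. Gsc and Dkk1 did not reach the filter of 1 CPM in 2 libraries. Lhx1 read 0.08 and 0.28 TPM in d2-FVFn and 2.35 and 1.16 TPM in d2-FVFp (2 and 8 against 48 and 28 counts), a fitted log2 difference of 3.13 (SE 0.67, adjusted p = 0.0223). Cer1 had 0 and 3 counts in d2-FVFn and 26 and 24 counts in d2-FVFp, at 2.03 and 1.59 TPM, a ratio of CPM of 20.1 (exact 95% counting interval 6.5 to 101, adjusted p = 0.0183). Neither of these genes passed a filter on a mean count of 50.

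Shisa2 read 1.84 and 2.44 TPM in d2-FVFn and 4.99 and 5.11 TPM in d2-FVFp (log2 fold change 1.19, SE 0.28, adjusted p = 0.0305). Otx2 fell from 33 and 45.4 TPM to 19.4 and 19.8 TPM (log2 fold change -1.06, SE 0.19, adjusted p = 0.014). The groups did not overlap for either gene. Hesx1 read 3.88 and 3.29 TPM against 4.5 and 1.96 TPM and was not called (log2 fold change -0.21, adjusted p = 0.799). Dkk1 had 6 counts in d2-FVFn and 9 in d2-FVFp, a ratio of CPM of 1.81 (exact 95% counting interval 0.576 to 6.19), and Gsc had 2 and 1 counts, at or under the floor of 3 in both groups. With any 1 of the 4 libraries left out, only 1 or 2 of the 4 calls passed, Otx2 in 3 of those fits and Lhx1 and Cer1 together in the fit without d2-FVFn replicate 2. Limma on log2(TPM + 1) called Lhx1 and Cer1 only.

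Set side by side with differentiation, the induced levels were low. Foxa2 stood at a mean of 164 TPM in d2-FVFp and 49.3 TPM in d3con. The d2-FVFp mean was 0.763% of the d3con mean for Lhx1, 0.332% for Cer1, 0.0989% for Dkk1, 5.98% for Otx2, 8.4% for Shisa2 and 17.6% for Hesx1. The T119 line, its medium and its lack of feeders differ from the day 3 cultures, so no test was made across them. The formative epiblast genes Fgf5 (log2 fold change -2.21, SE 0.51, adjusted p = 0.0276), Pou3f1 (-1.6, SE 0.16, adjusted p = 0.00213) and Dnmt3b (-1.36, SE 0.13, adjusted p = 0.00197) also fell in d2-FVFp, 3 of 4 tested from a list of 8 that mark the epiblast on its way out of the naive state and the anterior neural plate.

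The other organizer and anterior endoderm genes, a list of 15, were read in the same fits. In d3con against d0con 13 were called higher and 0 lower, against 14.6% of all genes called lower, with a median log2 fold change of 3.88. Those named by rule were Frzb, a secreted Wnt antagonist (46.8 ± 9.77 TPM in d3con, log2 fold change 10.18, SE 1.59, adjusted p = 0.00109), Fgf8 (569.6 ± 115 TPM; 10.08, SE 1.16, adjusted p = 0.000335), the endoderm factor Sox17 (101 ± 34.9 TPM; 10.02, SE 0.85, adjusted p = 0.00015) and the Wnt antagonist Sfrp5 (134 ± 81.8 TPM; 8.42, SE 1.14, adjusted p = 0.000589). In d3ko against d3con 8 were called lower and 0 higher, with a median of -2.09. Sox17 had the most negative change, to 1.37 ± 0.678 TPM in d3ko (log2 fold change -6.24, SE 0.54, adjusted p = 0.00226), followed by Sfrp5 (-4.67, SE 0.74, adjusted p = 0.0107), the BMP antagonist Chrd (-3.32, SE 0.71, adjusted p = 0.0224) and Frzb (-3.13, SE 0.81, adjusted p = 0.0407). The Nodal antagonists Lefty1 (-2.09, SE 0.3, adjusted p = 0.00986) and Lefty2 (-2.2, SE 0.3, adjusted p = 0.00938) were also called lower. Nodal itself (-0.69, SE 0.18, adjusted p = 0.0441) passed the p threshold but not that of the fold change. The count of 8 was 3 without d3con replicate 3 and 0 without both 75-base libraries.

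**Figure D4:**
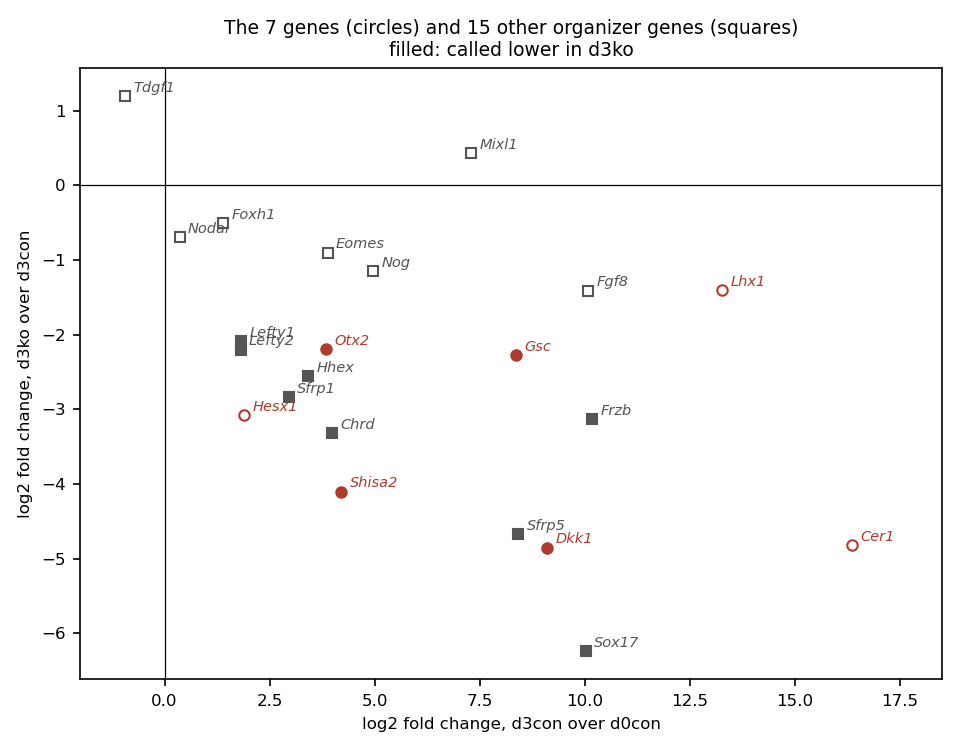
Log2 fold change of d3con over d0con (horizontal) against that of d3ko over d3con (vertical) for the 7 genes, as circles, and the 15 other organizer genes, as squares, filled where called lower in d3ko. Both axes use the d3con libraries. Lhx1 lies at -1.4 and Fgf8 at -1.41 on the vertical axis, above Cer1 at -4.82, and Sox17 at -6.24 lies lowest.

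In d2-FVFp 3 of the 11 organizer genes tested were called higher, among them Chrd (6.02 ± 0.318 against 0.645 ± 0.417 TPM, log2 fold change 3.15, SE 0.43, adjusted p = 0.00514) and Lefty2 (143 ± 9.04 against 46.1 ± 12.5 TPM; 1.58, SE 0.19, adjusted p = 0.00362), and Sfrp1 was called lower (-1.05, SE 0.21, adjusted p = 0.0175).

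A list of 16 ligands and receptors came from the pathways that Cer1, Dkk1 and Shisa2 hold back. Of these, 8 were called higher and 1 lower in d3con against d0con. Bmp2 rose from 0.05 to a mean of 33.7 TPM (log2 fold change 9.1, SE 1.2, adjusted p = 0.000543), Wnt3 from 0.765 to 30.4 TPM (5.1, SE 0.78, adjusted p = 0.000979) and the Wnt receptor Fzd8 from 0.745 to 25.1 TPM (4.87, SE 0.55, adjusted p = 0.000318), while Bmp4 fell from 172 to 7.27 TPM (-4.76, SE 0.5, adjusted p = 0.00028). In d3ko against d3con Fzd8 (-4.2, SE 0.44, adjusted p = 0.00438) and Fzd5 (-2.5, SE 0.61, adjusted p = 0.0331) were lower and Bmp4 was higher (2.49, SE 0.44, adjusted p = 0.0137). The other 13 were not called, and without d3con replicate 1 or without d3con replicate 3 only 1 of the 16 was.

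Across the 14 libraries, the pattern of 6 of the 7 genes was alike. Pearson's r of log2(TPM + 1) between pairs ran from 0.78 to 0.98 among Gsc, Lhx1, Otx2, Cer1, Dkk1 and Shisa2, and from 0.29 to 0.64 between Hesx1 and the others. These values describe libraries that share their day 3 groups and clones, with no test. Among 11094 other genes with a mean of at least 5 TPM in some group, the genes most like Cer1 were Slc44a5, Sema6d and Frzb (r = 0.99 each), those most like Dkk1 were Kcnj5 (r = 0.99), Wnt11 and Tnnt3 (r = 0.98 each), and those most like Shisa2 were Fzd8, Fam110c and Irx3 (r = 0.98 each). Gsc was closest to Zfr2, Pctp and Ttc12 and Lhx1 to Notch3, Zfr2 and Atat1 (r = 0.99 each). Otx2 was closest to Cbln1, Pilrb2 and Casr (r = 0.97 each), and Hesx1 to Fzd5 and Foxa3 (r = 0.86 each) and Dhrs11 (r = 0.84).

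The genes next to the 7 on their chromosomes were read in the same fits. Of 14 neighbours 12 were tested. In d3con against d0con 5 were called higher, against 20.6% of all genes tested. In d3ko against d3con 1 was called lower, against 3.51%. Positions are those of RefSeq on GRCm38.p6. Lhx1 (chromosome 11, 84517975 to 84525534, minus strand) is separated by 125 bases from the start of Lhx1os, a long noncoding RNA on the plus strand. Lhx1os read 0 in both d0con libraries, 100.4, 44.7 and 95.5 TPM in d3con and 15.6, 23.9 and 3.1 TPM in d3ko, and was not called between them (log2 fold change -2.52, SE 0.71, adjusted p = 0.0582). Clone C17, level with the controls for Lhx1, was thus below every d3con library for Lhx1os. The stretch between the starts of both genes (chr11:84525535-84525659, minus strand, from RefSeq's GRCm38.p6) is shown because both transcripts begin at its ends, and none of the motifs searched was found in it:

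Lhx1 to Lhx1os: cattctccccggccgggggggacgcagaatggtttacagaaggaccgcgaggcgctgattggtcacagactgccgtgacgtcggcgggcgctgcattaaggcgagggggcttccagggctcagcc

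Otx2 (chromosome 14, 48656781 to 48667644, minus strand) lies 1.64 kb from Otx2os1, another noncoding RNA, which was called higher in d3con against d0con (log2 fold change 5.35, SE 1.13, adjusted p = 0.00425) at 5.43, 1.88 and 3.85 TPM, and read 0.48, 1.02 and 0.38 TPM in d3ko (-2.59, SE 0.72, adjusted p = 0.051). On its other side Tmem260 also rose (2.14, SE 0.39, adjusted p = 0.00226). Next to Shisa2 (chromosome 14, 59625281 to 59631660, plus strand), Atp8a2 was called lower in d3ko (-4.03, SE 0.68, adjusted p = 0.0126), at a mean of 1.51 TPM in d3con. Next to Cer1 (chromosome 4, 82881751 to 82885151, minus strand), Zdhhc21 rose from a mean of 1.97 TPM in d0con to 8.15 TPM in d3con (1.85, SE 0.35, adjusted p = 0.00266), while Frem1 stayed at a mean of 0.38 TPM or less in every group of the day 0 and day 3 cells. The neighbours of Gsc (chromosome 12, 104471209 to 104473236, minus strand) are Serpina3n and Dicer1, those of Dkk1 (chromosome 19, 30545876 to 30549496, minus strand) are Ppp1r2-ps3 and Prkg1, and those of Hesx1 (chromosome 14, 26994419 to 27002329, plus strand) are Appl1 and Il17rd. The span of Hesx1 in RefSeq begins ahead of the start site listed in the promoter table.

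The promoter windows, 250 bases before to 50 bases after a RefSeq start site on GRCm38.p6 (1 window per gene), were searched on both strands for short motifs of factors of this programme. A Foxa motif, which was TGTTTAC or else the variant TATTTAC or else the variant TGTTTGC, was present in 1 of the 7 windows, that of Cer1, and in 9.55% of 16781 promoters. TGTTTGC alone was in 4.37% of promoters. At least 2 matches of it, a threshold taken from the Cer1 window after it was seen, were in 0.149%. The Lhx1 motif TAATTA, which reads the same on both strands, was present in the windows of Cer1 and Otx2, 2 of 7, and in 4.55% of promoters. The motif shared by Otx2 and Gsc, TAATCC, was in none of the 7 windows and in 6.5% of promoters. The Foxh1 motif AATNCACA was likewise in none of them and in 3.06% of promoters, the T-box motif AGGTGTGA in none and in 1.17%, and the Gata motif AGATAA in none and in 9.8%. The windows of Cer1 and of the outermost Otx2 start are shown up to the start site, with each match in capitals. In Cer1 (chr4:82885152-82885401, minus strand) these are TAATTA at -190 to -185 and TGTTTGC at -99 to -93, read on the other strand, and at -85 to -79, and in Otx2 (chr14:48667645-48667894, minus strand) TAATTA at -141 to -136, counted from -1 at the base before the start:

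Cer1: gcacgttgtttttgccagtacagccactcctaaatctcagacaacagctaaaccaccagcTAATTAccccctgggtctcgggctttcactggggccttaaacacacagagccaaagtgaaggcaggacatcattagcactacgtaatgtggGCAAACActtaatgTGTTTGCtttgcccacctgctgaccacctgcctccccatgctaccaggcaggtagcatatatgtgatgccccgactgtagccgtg

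Otx2: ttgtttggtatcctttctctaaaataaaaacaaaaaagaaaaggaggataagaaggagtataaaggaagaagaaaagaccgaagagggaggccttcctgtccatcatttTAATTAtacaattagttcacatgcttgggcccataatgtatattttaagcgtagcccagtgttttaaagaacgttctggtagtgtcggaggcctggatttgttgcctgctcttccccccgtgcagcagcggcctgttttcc

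A match is a description of letters and not of binding. The window of a further Otx2 start, inside the gene, held TAATTA at -234 to -229, -174 to -169 and -154 to -149, with TAATCC at -211 to -206 and AGATAA at -208 to -203, both read on the other strand. Another start inside the gene held AGATAA at -133 to -128. Cer1, with the Foxa matches, and Lhx1 and Shisa2, with none of the motifs, were called higher in d2-FVFp, and Otx2, without a Foxa match, was called lower.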

How the data were processed

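RNA was made into libraries with SMARTer Ultra Low Input v4 and aligned by the authors to mm10 (GRCm38) with STAR. The tables deposited hold RSEM estimated counts (expected counts, not normalized) and TPM per gene, for single libraries, and versions are not given in the sources used here. Clones of the day 0 and day 3 libraries were read from the names of the deposited tables. Effective lengths in the tables gave the read lengths.

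Expected counts were rounded, genes with at least 1 CPM in at least 2 libraries were kept (13899 in the 10 day 0 and day 3 libraries, 12943 in the 4 doxycycline libraries), and group means were fitted with edgeR 4.0.16 (TMM, quasi-likelihood F test, Benjamini-Hochberg adjustment over all genes tested, R 4.3.3). SE is the absolute log2 fold change over the square root of F. The scripts were tested on simulated data. DESeq2 1.42.0, limma 3.58.1 on log2(TPM + 1) and log2(TPM + 0.1), other filters and left-out libraries were alternatives. In d3con against d0con and d3ko against d0ko, libraries with the same number share a clone, and their deviations from the group mean correlated at -0.04 to 0.06. In d2-FVFp against d2-FVFn the deviations of same-numbered libraries correlated at 0.29. The reported fits used no replicate block. Exact intervals (95%) and a floor of 3 counts cover counting error only. TPM means are given with their SD.

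The 7 genes and all lists were chosen with earlier results of these data known. From each list, up to 4 called genes with the largest absolute log2 fold change, non-overlapping libraries and a mean of at least 5 TPM in the higher group were named, with the 3 genes most like each of the 7 and its chromosomal neighbours. Other genes were named after their values were seen. Of 24054 genes 93.7% matched 1 RefSeq row. Protein sequences were not used here.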

Additional observations from a re-analysis of the deposited data

How the results depend on the processing

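Over the 7 genes and Foxa2, 860 of 948 refits kept direction and call, 49 lost a call, 36 gained 1 and 3 changed sign. In d0ko against d0con and in the interaction none of these genes was called, so keeping the call there meant staying uncalled. Among called results, Otx2 in d3ko against d3con lost its call in 8 of 22 refits. Shisa2 in d2-FVFp against d2-FVFn lost it in 7 of 13, while the 6 calls in d3con against d0con were never lost. The changes of sign were in genes that were not called: Hesx1 in d0ko against d0con (-0.58 without d0con replicate 1 and -0.25 without d0ko replicate 2, within a range of -0.58 to 2.59 with 1 library left out) and in d2-FVFp against d2-FVFn (0.3 without d2-FVFp replicate 2, within a range of -0.89 to 0.3). The number of the 7 genes called ranged, with 1 library left out, from 6 to 6 in d3con against d0con, 2 to 4 in d3ko against d0ko, 1 to 6 in d3ko against d3con, 0 to 0 in d0ko against d0con, 0 to 4 for the interaction and 1 to 2 in d2-FVFp against d2-FVFn. In d3ko against d3con it was 1 when only these 2 groups were fitted, 1 at an adjusted p under 0.01, 0 without both 75-base libraries and 7 without both day 3 replicate 2 libraries. In d3ko against d0ko it was 2 at an adjusted p under 0.01 and 2 with limma on log2(TPM + 1). For the interaction it was 3 with DESeq2, 1 with all 14 libraries in a single fit and 5 without both day 3 replicate 2 libraries. In d2-FVFp against d2-FVFn it was 2 with a mean count of at least 50, which removed Lhx1 and Cer1, 2 with limma on log2(TPM + 1), 0 at an adjusted p under 0.01 and 0 with all 14 libraries in a single fit. The causes were not tested. The fit of all 14 libraries and the one without both day 3 replicate 2 libraries were chosen after seeing the data.

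With the replicate number as a block, 4 of the 7 genes were called in d3ko against d3con, as without it, but Cer1 (adjusted p = 0.04) took the place of Otx2 (adjusted p = 0.0535). The day 3 numbers are not known to pair these samples: deviations of same-numbered libraries correlated at 0.54, 0.29 and -0.01, and d3ko replicate 3 correlated best with d3con replicate 2. The block and the clone block changed no other call of the 7 genes.

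Over all genes, the number called ranged across the alternatives from 0 to 1521 higher and 1 to 1051 lower in d3ko against d3con (660 and 488 in the reported fit), from 344 to 1939 and 323 to 1051 in d3ko against d0ko (1613 and 795), from 1862 to 3371 and 1324 to 2332 in d3con against d0con (2863 and 2027), from 397 to 1218 and 42 to 330 in d2-FVFp against d2-FVFn (901 and 190) and from 0 to 942 and 0 to 686 for the interaction (0 and 0). The chromosome 14 median in d0con replicate 1 was 0.19 with a mean count of at least 50. Depth limits Gsc, Lhx1, Cer1 and Dkk1 at day 0 and in the doxycycline cells, where libraries held 0 to 48 counts of each.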

Other observations

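Close relatives of the 7 genes were mostly low. Of a list of 14, 8 passed the filter in the day 0 and day 3 cells, and 5 were called higher in d3con against d0con, among them Shisa4 (7.36 ± 0.855 TPM in d3con, log2 fold change 1.98, SE 0.41, adjusted p = 0.00397) and Shisa5 (121 ± 30 TPM; 1.69, SE 0.28, adjusted p = 0.00149). Shisa4 and Shisa5 were also called higher in d2-FVFp, by 2 (SE 0.45, adjusted p = 0.0246) and 1.48 (SE 0.22, adjusted p = 0.00664), together with Dkk3 (10.2 ± 4.25 against 1.21 ± 0.304 TPM; 3.02, SE 0.37, adjusted p = 0.00371). In d3ko against d3con 1 of the 8, Crx, was called lower. The count of 5 was 2 without d0con replicate 1 or without d3con replicate 1, and 3 without d0con replicate 2, d0ko replicate 1, d0ko replicate 2 or d3con replicate 3. The call of Crx was lost without d3con replicate 1, d3con replicate 3, d3ko replicate 1 or d3ko replicate 3.

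Of 10 cofactors through which these transcription factors act (LIM-domain binding proteins, their single-stranded DNA binding partners and Groucho co-repressors), 4 were called higher and 2 lower in d3con against d0con. Tle2 rose (log2 fold change 3.22, SE 0.82, adjusted p = 0.00989) and Tle4 fell from 63.1 ± 0.785 to 4.95 ± 1.91 TPM (-3.88, SE 0.34, adjusted p = 0.000164). Both moved the other way in d3ko against d3con, Tle2 by -2.77 (SE 0.67, adjusted p = 0.032) and Tle4 by 1.61 (SE 0.3, adjusted p = 0.016), comparisons that share the d3con libraries.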
